A study of Oryza sativa with 2 samples.

Results

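Genes of sugar transport, sucrose metabolism and trehalose metabolism were described on 2 arrays of the developing rice collar, the band at which the blade of a leaf bends away from its sheath. Members were the probe sets, other than controls, that the annotation gives for 1 gene whose symbol or synonym is SWEET, SUT, SUS, SPS, TPP, TPS or CIN followed by a number, and synonyms were taken from the RefSeq gene table. This found 49 probe sets of 41 genes, out of 17905 genes with such a probe set and 57194 probe sets in all. No member carried the name TPS, so the trehalose phosphate synthases are not described here. The symbol rule also took in 6 genes of the gene table, OsSWEET3a, OsSWEET13, OsSUS7, OsCIN5, OsCIN6 and OsTPP8, for which the annotation gives no probe set, and these were not analysed here.

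The antisense OsLIC array held RNA pooled from 30 collars of antisense transgenic plants of line 2, which carry the full-length cDNA of the CCCH zinc finger gene OsLIC in antisense orientation behind the maize ubiquitin promoter, a promoter active in most tissues. The wild type array held RNA pooled from 30 collars of plants without the transgene. Each collar came from its own plant, and both kinds of plant spent 2 weeks on culture medium as seedlings and then grew in the same field to the heading stage. A single transgenic line was measured, with 1 array per condition, so effects of line 2 and of the antisense construct cannot be told apart, no value has a replicate check, and no significance test was made. OsLIC itself had a signal of 2069 on the antisense OsLIC array and 219.8 on the wild type array, 9.41-fold higher under the antisense label. By immunoblot, with young stems named as the tissue, the authors reported less OsLIC protein in the antisense lines, to different extents. Neither the strand nor the position of the OsLIC probes on the array was checked. Directions are therefore those of the array labels.

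Sugar reaches a growing collar through the phloem, mostly as sucrose. SWEET proteins let sugars pass a membrane down their gradient, whereas SUT proteins carry sucrose together with protons. Inside the tissue sucrose is split by sucrose synthases (SUS), which yield UDP-glucose for cell walls and starch, or outside the cell by cell wall invertases (CIN), and it is made by sucrose phosphate synthases (SPS). Trehalose phosphate, a signal of the sucrose status of plant cells, is removed by trehalose phosphate phosphatases (TPP).

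The signals are those of the GeneChip Operating Software (GCOS), with each array scaled to an overall intensity of 500. A log2 ratio is that of the antisense OsLIC array over the wild type array, taken after signals under 20 were set to 20, and is given as a result where at least 1 of the 2 signals was 100 or more. Signals of different probe sets are not compared with each other, since probes differ in how well they bind. Of the 49 member probe sets, 33 probe sets of 28 genes passed this minimum, and 30 passed it on both arrays. OsSUS3, OsTPP2 and the second probe set of OsSUT2 passed on 1 array only.

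Few members lay past a 2-fold difference. Of the 33 probe sets, 1 was at least 2-fold higher on the antisense OsLIC array (OsSUS3) and 2 were at least 2-fold lower (OsSWEET16 and the second probe set of OsSUT2), which is 9.09% past 2-fold in either direction. Over all 26697 probe sets past the minimum the share was 9.91% (5.28% higher and 4.64% lower), so the members' share lay near that of the whole array. The members' median log2 ratio was 0.20, with 20 probe sets above 0 and 13 below, beside a median of -0.01 over all probe sets, with 12954 above 0 and 13743 below. Without OsSPS1, OsSPS2 and TPPII, whose names are shared with other proteins, the members' median was 0.12. Among the 16 members with a signal of 1000 or more on the brighter array it was -0.006. With 50 added to every signal instead of the floor, which shrinks ratios of dim signals, no member was past 2-fold. The size of the differences, as the median absolute log2 ratio, was 0.35 for the members and 0.28 for all probe sets.

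**Figure D1:**
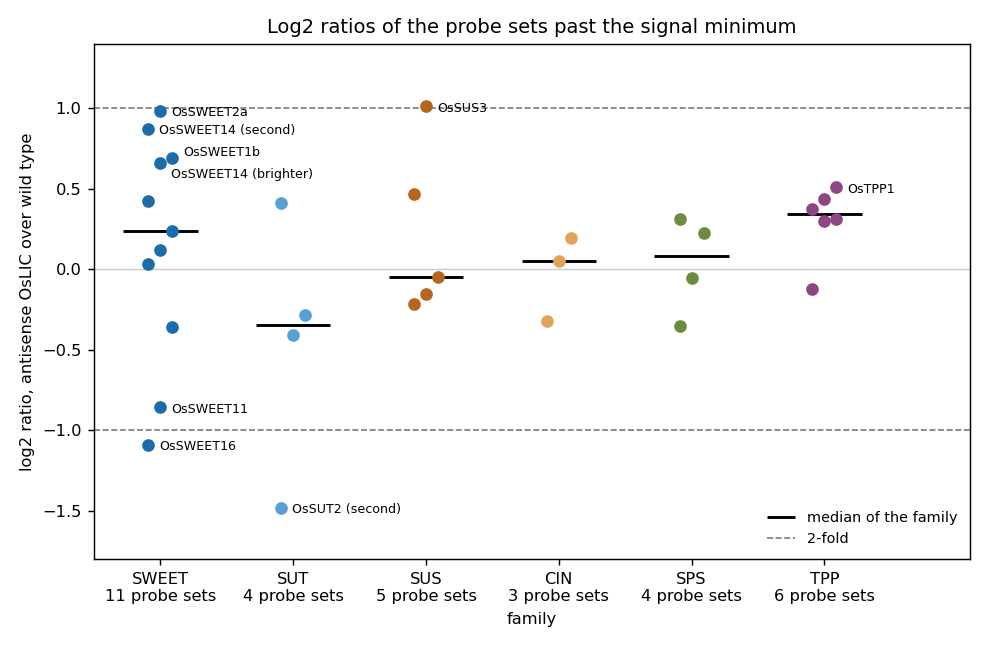
Log2 ratio of the antisense OsLIC array over the wild type array (vertical axis) for the 33 member probe sets past the signal minimum, grouped by family (horizontal axis). Each point is 1 probe set, the bar is the family's median, dashed lines mark 2-fold, and names are given from 0.5 on the log2 scale outward. SWEET probe sets lie on either side of 0 between -1.09 and 0.99, while the SPS probe sets lie between -0.35 and 0.31.

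Among the SWEET transporters, 11 probe sets of 9 genes passed the minimum, and their log2 ratios reached further in both directions than a median of 0.24 shows. OsSWEET16 had a signal of 123 on the antisense OsLIC array and 262 on the wild type array, 2.13-fold lower (log2 ratio -1.09). It was the SWEET probe set past 2-fold. OsSWEET2a had a signal of 595 on the antisense OsLIC array and 300.3 on the wild type array, and its 1.98-fold higher signal (log2 ratio 0.99) fell just short of the threshold, which it passed after a loess fit on the signal (1.02). Arabidopsis SWEET proteins of the same numbers are known as transporters of the vacuole membrane. OsSWEET2b, the gene named beside OsSWEET2a, had signals of 187 and 182 by its 2 probe sets on the antisense OsLIC array, against 172 and 136 on the wild type array (log2 ratios 0.12 and 0.43).

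OsSWEET11 and OsSWEET14, sucrose transporters best known as the genes that bacterial blight switches on in rice leaves, differed in opposite directions. OsSWEET14 had signals of 695 and 594 by its 2 probe sets on the antisense OsLIC array, against 440.5 and 324 on the wild type array, with log2 ratios of 0.66 and 0.87. These probe sets were designed from the same transcript and are not independent measurements. OsSWEET11 had a signal of 218 on the antisense OsLIC array and 395 on the wild type array (log2 ratio -0.86), by a probe set of the suffix _s_at, whose probes can match more than 1 transcript. Neither gene was past 2-fold.

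The other SWEET genes past the minimum were each within 2-fold. OsSWEET1b had a signal of 467 on the antisense OsLIC array and 289 on the wild type array (log2 ratio 0.69). OsSWEET1a had 6009 on the antisense OsLIC array and 5093 on the wild type array (log2 ratio 0.24). OsSWEET4, a hexose transporter known from grain filling, had 11603 on the antisense OsLIC array and 11352 on the wild type array, which is a log2 ratio of 0.03 and thus almost the same signal. OsSWEET6a/OsSWEET6b, a single gene in the RefSeq table, had 176 on the antisense OsLIC array and 226 on the wild type array (log2 ratio -0.36). A log2 ratio of 0.5 or more in either direction was found for 6 of the 11 SWEET probe sets and for 3 of the 22 other members, beside 28.1% of all probe sets past the minimum. Both probe sets of OsSWEET14 are among the 6. Most SWEET probe sets had signals under 1000 on both arrays, whereas most of the other members reached 1000. Among all probe sets with a signal of 1000 or more on the brighter array, 16.8% differed by as much, and between 500 and 1000 21.3% did. Most SWEET probe sets past the minimum lay under 500, where this share was not computed. Differences past 2-fold were more frequent there, at 9.86% between 200 and 500 and 24.5% between 100 and 200. The 6 of 11 thus has no background of like signal beside it. The difference between SWEET and the other members, and the part of signal level in it, were not tested.

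**Figure D2:**
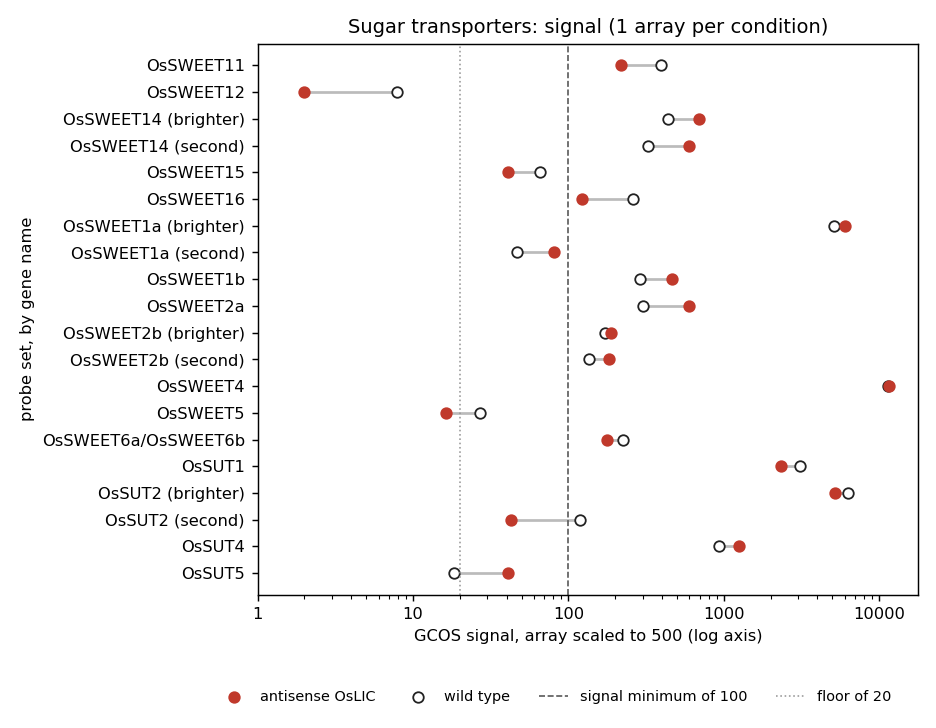
Signal of each SWEET and SUT probe set (vertical axis) on the antisense OsLIC array (filled circles) and the wild type array (open circles), on a log axis, 1 array per condition. Dashed and dotted lines mark the signal minimum of 100 and the floor of 20. OsSWEET4 has nearly the same signal on both arrays, whereas the points of OsSWEET16, OsSWEET2a and the second probe set of OsSUT2 stand clearly apart.

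Of the sucrose transporters, 4 probe sets of 3 genes passed the minimum, with a median log2 ratio of -0.35. OsSUT1, which acts in long-distance sucrose transport in the phloem, had a signal of 2324 on the antisense OsLIC array and 3086 on the wild type array (log2 ratio -0.41). OsSUT2, which carries sucrose out of the vacuole, had 5169.5 on the antisense OsLIC array and 6289 on the wild type array by its brighter probe set (log2 ratio -0.28). OsSUT4, in contrast, had 1246 on the antisense OsLIC array and 938 on the wild type array (log2 ratio 0.41). None of these was past 2-fold. The second probe set of OsSUT2 was, with a signal of 42.8 on the antisense OsLIC array and 119.6 on the wild type array, 2.79-fold lower (log2 ratio -1.48). Both probe sets of OsSUT2 were thus lower on the antisense OsLIC array, but their log2 ratios differed by 1.20. That was the most among the 5 genes with 2 probe sets past the minimum, all of which had the same sign by both. The second probe set of OsSUT2 passed the minimum on the wild type array only, which favours a lower antisense signal. Its sign is therefore not independent support.

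Sucrose synthases with high signals were much the same on the 2 arrays. OsSUS2 had a signal of 17579 on the antisense OsLIC array and 18122 on the wild type array (log2 ratio -0.04). OsSUS1 had 4398 and 2439 by its 2 probe sets on the antisense OsLIC array, against 4887 and 2836 on the wild type array (log2 ratios -0.15 and -0.22). OsSUS4 was the gene with the larger difference among these, with 1877 on the antisense OsLIC array and 1358 on the wild type array (log2 ratio 0.47). OsSUS3 was the member past 2-fold in the upward direction, with signals of 138 on the antisense OsLIC array and 68.3 on the wild type array, 2.02-fold higher (log2 ratio 1.01). Its wild type signal lay under the minimum, and its log2 ratio was 0.99 after quantile normalization and 0.96 after a loess fit, under 2-fold. The median log2 ratio of the 5 SUS probe sets was -0.04.

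Cell wall invertases showed no difference past 2-fold in the 3 genes that passed the minimum. OsCIN1 had a signal of 1425 on the antisense OsLIC array and 1779 on the wild type array (log2 ratio -0.32). OsCIN7 had 785 on the antisense OsLIC array and 756 on the wild type array (log2 ratio 0.05), and OsCIN4 had 380.5 on the antisense OsLIC array and 332 on the wild type array (log2 ratio 0.20). OsCIN2, the grain filling gene also named GIF1, and OsCIN3, which lies next to it in the RefSeq gene table, stayed under the minimum. OsCIN2 had signals of 21.8 on the antisense OsLIC array and 7.18 on the wild type array, and OsCIN3 had 8.67 on the antisense OsLIC array and 25.4 on the wild type array.

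On the side of sucrose synthesis, OsSPS3F had a signal of 1324 on the antisense OsLIC array and 1133 on the wild type array (log2 ratio 0.22). OsSPS4F had 2014 on the antisense OsLIC array and 2574 on the wild type array (log2 ratio -0.35). These genes therefore differed in opposite directions, each by less than 2-fold. The symbol rule also took in OsSPS1, with 2216 on the antisense OsLIC array and 1783 on the wild type array (log2 ratio 0.31), and OsSPS2, with 910.4 on the antisense OsLIC array and 945 on the wild type array (log2 ratio -0.05). Rice solanesyl diphosphate synthases, enzymes of plastoquinone and ubiquinone synthesis, carry the same names, and the annotation holds no description that would tell them apart. The median of the 4 SPS probe sets was 0.09, and it was -0.06 with OsSPS3F and OsSPS4F alone.

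Of the trehalose phosphate phosphatases, OsTPP1, known from tolerance of salt and cold stress, had a signal of 319 on the antisense OsLIC array and 224 on the wild type array (log2 ratio 0.51). OsTPP9 had 264 on the antisense OsLIC array and 204 on the wild type array (log2 ratio 0.38), and OsTPP2 had 132 on the antisense OsLIC array and 97.7 on the wild type array (log2 ratio 0.44). These genes were thus each somewhat higher on the antisense OsLIC array, but none reached 2-fold. OsTPP7, which supports germination under water, had 1091 on the antisense OsLIC array and 1189 on the wild type array (log2 ratio -0.12). The gene TPPII, which is also listed under the name TPP2, had 2696 and 1169 by its 2 probe sets on the antisense OsLIC array, against 2193 and 941 on the wild type array (log2 ratios 0.30 and 0.31). TPPII is the usual name of a tripeptidyl peptidase, a protein-degrading enzyme and not one of trehalose metabolism. The median of the 6 probe sets of this group was 0.34 and that of the 4 without TPPII was 0.41.

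**Figure D3:**
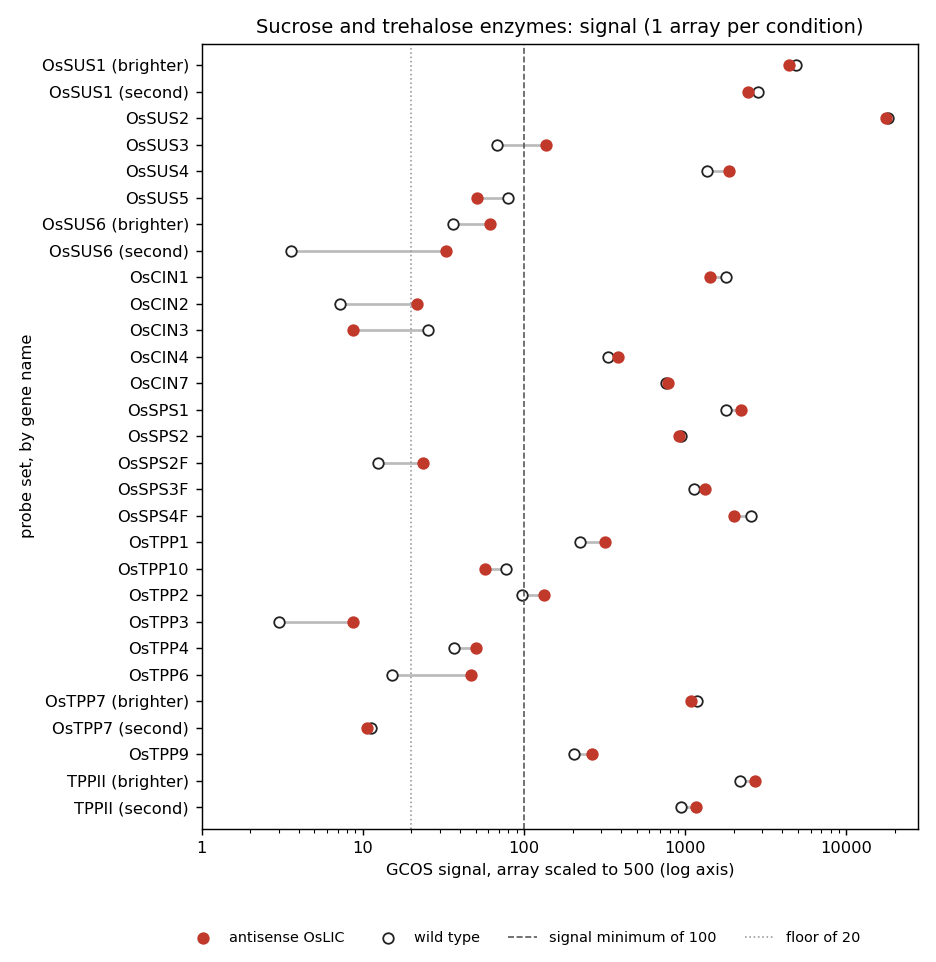
Signal of each SUS, CIN, SPS and TPP probe set (vertical axis) on the antisense OsLIC array (filled circles) and the wild type array (open circles), on a log axis, 1 array per condition. Dashed and dotted lines mark the signal minimum of 100 and the floor of 20. Probe sets above a signal of 1000 have their circles close together, and wider gaps lie mostly under the minimum.

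Set side by side, the 15 transporter probe sets past the minimum had a median log2 ratio of 0.12, with none at least 2-fold higher and 2 at least 2-fold lower. The 8 probe sets of sucrose cleavage had a median of 0.01, with 1 at least 2-fold higher and none lower by as much. The 4 of the SPS group, which include OsSPS1 and OsSPS2 with names in doubt, and the 6 of the TPP group held none past 2-fold. Over all probe sets 5.28% were higher and 4.64% lower by as much, so counts of 0 to 2 among so few probe sets lay near the share of the whole array. The log2 ratios of these steps overlapped throughout. They ran between -1.48 and 0.99 for transporters, -0.32 and 1.01 for cleavage, -0.35 and 0.31 for the SPS group and -0.12 and 0.51 for the TPP group. OsSPS4F and OsSPS3F alone were at -0.35 and 0.22. No difference between steps was tested.

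Members past 2-fold had low signals, and over the whole array differences past 2-fold were also more frequent at low signals. All 16 member probe sets with a signal of 1000 or more on the brighter array, from 14 genes, had log2 ratios between -0.41 and 0.47, and none was past 2-fold, beside 4.18% of all 10312 probe sets this bright. A log2 ratio of 0.5 or more in either direction, found for none of the 16, was found for 16.8% of all such probe sets. Between 500 and 1000, none of 5 members was past 2-fold, beside 5.33% of all probe sets, and 3 of the 5, OsSWEET2a and both probe sets of OsSWEET14, had a log2 ratio of 0.5 or more, beside 21.3%. Of the 7 members between 200 and 500, 1 was past 2-fold, beside 9.86% of all probe sets in that range. Of the 5 members between 100 and 200, 2 were, beside 24.5%. OsSUS3, the second probe set of OsSUT2 and OsSWEET16 reached at most 262 on the brighter array.

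**Figure D4:**
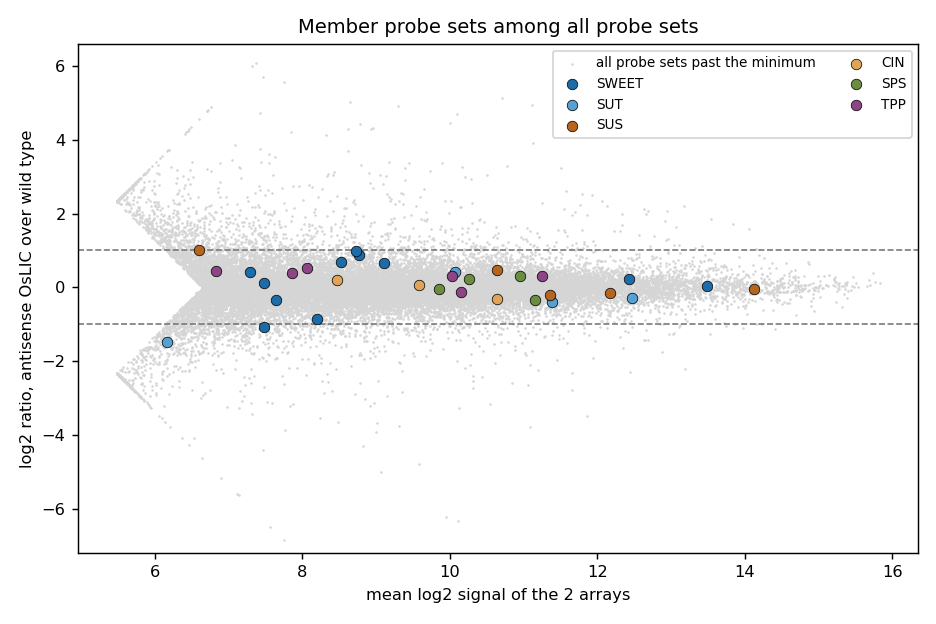
Log2 ratio of the antisense OsLIC array over the wild type array (vertical axis) against the mean log2 signal of both arrays (horizontal axis), for all 26697 probe sets past the minimum (grey) and the 33 member probe sets (coloured by family). Dashed lines mark 2-fold. Members with high signals lie close to 0, and the 3 past 2-fold lie among dim probe sets.

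The other 16 member probe sets stayed under a signal of 100 on both arrays, and 13 genes had no probe set past it. A ratio of such dim signals is not given as a result. OsSWEET15 had signals of 40.7 on the antisense OsLIC array and 65.9 on the wild type array, OsSUS5 had 51.0 on the antisense OsLIC array and 79.3 on the wild type array, and OsTPP10 had 56.9 on the antisense OsLIC array and 77.0 on the wild type array. These genes had their higher signal under the wild type label. OsSUT5, OsTPP4, OsTPP6, OsSPS2F and both probe sets of OsSUS6 had theirs under the antisense label, with signals of at most 61.6. The second probe set of OsSWEET1a had signals of 81.0 on the antisense OsLIC array and 46.8 on the wild type array. OsSWEET5, OsSWEET12, OsTPP3 and the second probe set of OsTPP7 had signals of at most 27.0 on either array. Low signals of this kind do not show that the transcripts are absent.

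Neighbouring steps of sugar metabolism were described from lists of gene symbols, which held 31 further probe sets, 25 of them past the minimum. Past 2-fold, none of these 25 was higher and 1 was lower on the antisense OsLIC array, with a median log2 ratio of -0.15. That is 4% past 2-fold, beside 9.91% of all probe sets. Most of the 25 had a signal of 1000 or more on the brighter array, where 4.18% of all probe sets were past 2-fold. The 25 came from 16 genes, and 8 of these probe sets were of 3 SnRK1 kinase genes. Their median of -0.15 thus counts some genes several times. The probe set past 2-fold was that of a hexokinase named HXK4 and HXK8 in the gene table, of the enzymes that phosphorylate glucose. It had a signal of 348 on the antisense OsLIC array and 703 on the wild type array (log2 ratio -1.02). The fructokinase OsFKI, which phosphorylates the fructose released from sucrose, had 1212 on the antisense OsLIC array and 719 on the wild type array (log2 ratio 0.75). Other hexokinases of the same list ran either way. The gene named HXK2 and HXK6 had 1010.5 on the antisense OsLIC array and 1633 on the wild type array (log2 ratio -0.69). The gene named HXK6 and HXK7 had 1178 on the antisense OsLIC array and 1694 on the wild type array (log2 ratio -0.52). HXK5, in contrast, had 1775 on the antisense OsLIC array and 1320 on the wild type array (log2 ratio 0.43). Of the 8 hexokinase and fructokinase probe sets past the minimum, 4 had log2 ratios above 0 and 4 below, with a median of 0.03. The monosaccharide transporter OsMST3 had 8735 on the antisense OsLIC array and 7947 on the wild type array (log2 ratio 0.14), and the neutral invertase OsNIN3 had 3327 on the antisense OsLIC array and 3085 on the wild type array (log2 ratio 0.11). Both probe sets were within 2-fold. The 8 probe sets of SnRK1 kinases, which act when sugar runs short, had log2 ratios between -0.34 and 0.05, and the brightest, of the gene OSK24/OSK4, had 5446 on the antisense OsLIC array and 6049.8 on the wild type array. The 6 of starch synthesis past the minimum had log2 ratios between -0.45 and 0.09, and the brightest, of the branching enzyme gene Sbe1, had 3561 on the antisense OsLIC array and 3515 on the wild type array. No probe set carried the listed names of trehalase or UDP-glucose pyrophosphorylase.

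Marker genes were read beside these results, since in a bulk sample fewer cells of a type and less RNA per cell cannot be told apart. OsLG1, a liguleless gene that marks the lamina joint, had a signal of 641 on the antisense OsLIC array and 494 on the wild type array. OsLG2, the other liguleless gene listed, had 106 on the antisense OsLIC array and 138 on the wild type array by its probe set past the minimum, the opposite direction. The 6 probe sets of photosynthesis genes, from 2 genes, summed to 48200 on the antisense OsLIC array and 58200 on the wild type array. Without the brightest, of OsrbcS, the other 5 summed to 22500 on the antisense OsLIC array and 43300 on the wild type array. CAB2R, a chlorophyll-binding protein gene, had 12844 and 5531 by its 2 probe sets on the antisense OsLIC array, against 25685 and 12945 on the wild type array. OsrbcS, of the enzyme that fixes carbon dioxide, was higher under the antisense label by 2 probe sets and lower by 1 of those past the minimum. Of 12 probe sets of floral MADS-box genes 9 stayed under the minimum, and the 12 summed to 7500 on the antisense OsLIC array and 11200 on the wild type array. A single probe set held the gap, with 6057 on the antisense OsLIC array and 9773 on the wild type array. Its gene is named OsMADS18 and was taken in through its synonym OsMADS2. The other 11 summed to 1440 on the antisense OsLIC array and 1430 on the wild type array. Most of that sum was OsMADS16, which was higher under the antisense label. It had 1179 on the antisense OsLIC array and 1001 on the wild type array (log2 ratio 0.24). The same sum hides a dim probe set of the other gene named OsMADS2, which was past 2-fold. That probe set had 30.5 on the antisense OsLIC array and 155 on the wild type array (log2 ratio -2.35). Seed storage protein probe sets, 7 in all, summed to 1080 on the antisense OsLIC array and 967 on the wild type array. Without the brightest, of GLUA2, the other 6 summed to 335 on the antisense OsLIC array and 445 on the wild type array. The 2 probe sets of GLUA2 past the minimum disagreed. The brightest was higher under the antisense label (log2 ratio 0.51). The dimmer was past 2-fold lower, with 61.4 on the antisense OsLIC array and 174 on the wild type array (log2 ratio -1.50). The part of these markers in the sugar results was not tested.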

How the data were processed

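The authors hybridised biotin-labelled cRNA to the GeneChip Rice Genome Array and deposited 1 linear signal intensity per probe set, from GCOS (version not given in the sources used here), with the scaling described above. The trimmed mean over all probe sets, 2% off each end, was checked and came to 500.1 on both arrays. Detection calls were not used here. With 1 array per condition, the number of arrays limits the precision, and log2 ratios were described without a test. The antisense OsLIC array had 25040 probe sets at 100 or more and the wild type array had 24901.

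Control and reporter probe sets, 187 in all, were left out. The annotation names a single gene for 22436 probe sets and several genes for 95, while 34850 are listed without any, and all 22436 were matched by gene identifier to RefSeq names. Coordinates were not used, since the files name no genome build, and no sequences of members were used here. The members and lists were chosen with earlier results of these data known. Values were given for OsLIC, members past 2-fold, the 3 brightest probe sets of a family, members of 1000 or more, and the brightest gene, or those past 2-fold, of each neighbouring list. Further members were given so that each is accounted for, and OsFKI and the hexokinases within 2-fold were named after their values were seen. Alternatives were quantile normalization, median centring, loess (fraction 0.4), a pseudocount of 50, other signal minimums, a 3-fold threshold, leaving out probe sets that end in _x_at or _s_at, and 1 value per gene. Leaving out OsSPS1, OsSPS2 and TPPII was an addition made once values were known. Simulated arrays with known changes of 3-fold or more in brighter probe sets served only to check the code of the 2-fold calls. The calls were made as deposited, after quantile normalization, after loess and with the pseudocount. The simulated noise was small, so changes of that size were bound to be called. No change near 2-fold was put in, and none in probe sets as dim as the members past 2-fold. The simulation therefore does not test the calls of OsSUS3, OsSWEET16 and the second probe set of OsSUT2. The other steps were not simulated. Python 3.11.15, pandas 2.3.3, numpy 2.4.6 and statsmodels 0.14.6 were used.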

Additional observations from a re-analysis of the deposited data

How the results depend on the processing

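Counts of members past 2-fold were small and moved with the setting, while most medians did not. With a pseudocount of 50, 0 members lay past 2-fold upward and 0 downward, and the log2 ratios of OsSUS3, OsSWEET16 and the second probe set of OsSUT2 were 0.67, -0.85 and -0.87. Over all probe sets 5.85% were past 2-fold under that setting, against 9.91% with the floor. The 3-fold threshold and a signal minimum of 500 also left 0 higher and 0 lower, and a minimum of 200, or of 100 on both arrays, left 0 higher and 1 lower. These settings also lowered the share over all probe sets, to 4.39% for 3-fold and to 4.55%, 6.02% and 4.19% for the minimums of 500, 200 and 100 on both arrays. Quantile normalization left 0 higher and 2 lower. With no minimum 3 were higher, and 15.9% of all probe sets were past 2-fold. Under loess 1 was higher, which was OsSWEET2a and not OsSUS3. With 1 value per gene, by the brightest probe set or by the mean over probe sets, 1 was lower. The median log2 ratio of SUS probe sets, -0.04, was 0.21 with no minimum, without the suffix _x_at or _s_at, and with 1 value per gene by either rule. The SWEET median was 0.66 at a minimum of 500. All other family medians, and the median of all members, stayed within 0.2 of their values in every alternative. Selecting members by gene description was not run, since the annotation holds no descriptions. No paired analysis was possible because each condition has 1 array.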
